A study of Mus musculus with 9 samples.

Results

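The immunity-related GTPases (IRGs) and guanylate-binding proteins (GBPs) are interferon-induced GTPases, and 10 of their genes were examined: Iigp1, Irgm1, Irgm2, Igtp, Ifi47, Gbp2, Gbp3, Gbp6, Gbp7 and Gbp9. They were taken by symbol through the Ensembl identifiers of the deposited count table, and 9 of the 10 had a row among 39179 gene rows. Gbp6 matched no row. The 10 genes were selected on earlier results from these same libraries, among them that Iigp1 stood higher in Cre-negative cells than in both other groups. Their levels are therefore given as a description, and the comparisons lend them no independent support.

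The libraries held total RNA of LSK cells, which are bone marrow cells negative for lineage markers and positive for Sca-1 and Kit, the fraction that holds the blood stem cells. The wild-type group (n = 3) was Dnmt3a+/+ with the Mx1-Cre transgene. The mutant group (n = 4, mutant_824, mutant_827, mutant_829 and mutant_830) was Dnmt3a+/m with Mx1-Cre, and the Cre-negative group (n = 2, cre_negative_780 and cre_negative_819) carried the conditional allele without Cre and is given as Dnmt3a+/- in the design text. All were C57BL/6 mice aged 6 months, and the treatment recorded for every sample was 5 intraperitoneal injections of poly(I:C), a synthetic double-stranded RNA. That text is the same for all samples and speaks of inducing Cre, so whether the Cre-negative mice were injected too rests on it alone. Mx1-Cre is driven by the promoter of an interferon-inducible gene and is switched on by the interferon that poly(I:C) evokes. The time between the last injection and cell collection is not given in the sources used here. The labels number the libraries and do not say that each came from a separate animal, so the errors below measure the spread between these samples.

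Interferon gamma binds its receptor, made of Ifngr1 and Ifngr2, and acts through Jak1 and Jak2 on genes with GAS elements. Type I interferons act through Ifnar1 and Ifnar2, mainly on genes with ISRE elements. Both routes induce IRGs and GBPs, which gather on the vacuoles of intracellular parasites and bacteria and help to destroy them. Iigp1 and Ifi47 have the GKS form of the GTP-binding loop and load onto such vacuoles, whereas Irgm1, Irgm2 and Igtp have the GMS form, sit on the cell's own membranes and hold the GKS proteins inactive. Irgm1 is also known in mice for preserving blood stem cells during infection and interferon exposure. The GBPs are larger, and some of them carry a lipid anchor.

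The members lie in clusters. On GRCm38 the Ensembl genes Irgm1 (ENSMUSG00000046879, chr11:48861968-48871683, minus strand), Ifi47 (ENSMUSG00000078920, chr11:49076587-49096974), Igtp (ENSMUSG00000078853, chr11:58199556-58207591) and Irgm2 (ENSMUSG00000069874, chr11:58199618-58222782) are on chromosome 11, all but Irgm1 on the plus strand. Gbp7 (ENSMUSG00000040253, chr3:142530342-142550149), Gbp3 (ENSMUSG00000028268, chr3:142560026-142573209) and Gbp2 (ENSMUSG00000028270, chr3:142620602-142638008) follow each other on the plus strand of chromosome 3. Gbp9 (ENSMUSG00000029298, chr5:105077630-105139539, minus strand) is on chromosome 5, and Iigp1 (ENSMUSG00000054072) lies apart from these clusters. The Irgm2 and Igtp models overlap on the same strand, sharing 4.39% and 8.01% of their exon bases, as do Gbp9, Gbp4 and Gbp8. Of the 50-base pieces of each measured member's transcripts, 0.379% (Irgm1) to 12.7% (Gbp7) also occurred in another gene's transcripts. Reads that did not align uniquely or were ambiguous between genes were left out of the gene rows, so these members can be undercounted.

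RefSeq promoter windows of 300 bases (250 before to 50 after the start, GRCm38.p6) were available for 7 members. They were searched on both strands for an ISRE-like motif, GAAANNGAA, and a GAS-like motif, TTCNNNGAA, which reads the same on both strands. The windows shown are those of the 2 members on chromosome 11 with both motifs, of Irgm1, and of 2 GBP genes of chromosome 3. Each is written 5′ to 3′ on the gene's strand, with every motif match in capitals.
Igtp, chr11:58199306-58199605, plus strand: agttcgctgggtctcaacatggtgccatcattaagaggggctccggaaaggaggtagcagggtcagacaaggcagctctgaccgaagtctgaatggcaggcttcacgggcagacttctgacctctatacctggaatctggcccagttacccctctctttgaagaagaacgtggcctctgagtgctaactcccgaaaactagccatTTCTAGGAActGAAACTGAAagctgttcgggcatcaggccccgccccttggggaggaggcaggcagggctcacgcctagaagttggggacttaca
Irgm2, chr11:58214727-58215026, plus strand: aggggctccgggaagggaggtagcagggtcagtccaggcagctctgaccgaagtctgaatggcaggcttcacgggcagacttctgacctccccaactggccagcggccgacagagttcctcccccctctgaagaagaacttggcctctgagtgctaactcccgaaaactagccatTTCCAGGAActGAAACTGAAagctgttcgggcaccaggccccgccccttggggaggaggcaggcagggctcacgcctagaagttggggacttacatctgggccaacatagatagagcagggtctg
Irgm1, chr11:48871371-48871670, minus strand: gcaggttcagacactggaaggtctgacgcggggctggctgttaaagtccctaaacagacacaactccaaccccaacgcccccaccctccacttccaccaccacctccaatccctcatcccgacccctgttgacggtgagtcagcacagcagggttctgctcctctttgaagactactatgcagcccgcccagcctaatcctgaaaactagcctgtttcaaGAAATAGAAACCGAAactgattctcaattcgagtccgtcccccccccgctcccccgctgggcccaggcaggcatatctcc
Gbp7, chr3:142530086-142530385, plus strand: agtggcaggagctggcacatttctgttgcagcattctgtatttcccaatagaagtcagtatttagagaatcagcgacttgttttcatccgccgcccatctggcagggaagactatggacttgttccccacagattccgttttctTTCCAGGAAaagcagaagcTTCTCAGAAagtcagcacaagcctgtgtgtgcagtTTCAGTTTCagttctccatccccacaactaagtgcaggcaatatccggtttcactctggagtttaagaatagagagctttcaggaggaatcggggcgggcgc
Gbp2, chr3:142620413-142620712, plus strand: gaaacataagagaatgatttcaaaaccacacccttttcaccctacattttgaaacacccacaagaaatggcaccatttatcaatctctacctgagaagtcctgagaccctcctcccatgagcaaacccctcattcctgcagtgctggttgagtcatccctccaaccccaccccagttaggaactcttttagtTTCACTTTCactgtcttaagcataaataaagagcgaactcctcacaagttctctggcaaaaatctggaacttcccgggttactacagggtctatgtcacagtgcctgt

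Igtp and Irgm2 carried the same arrangement, a GAS-like match followed after 2 bases by an ISRE-like match. In Igtp the matches spanned positions -45 to -37 and -34 to -26 from the start, and in Irgm2 -75 to -67 and -64 to -56. The Igtp and Irgm2 windows shared a stretch of 61 identical bases, and 66.7% of the Igtp window lay in 12-base pieces also found in that of Irgm2. The Irgm2 window belongs to a RefSeq start inside the longer Ensembl model, and the Irgm1 window also lies wholly inside its Ensembl model. This arrangement, searched for after the sequences were seen, occurred in 8 of 32851 windows (0.0244%). Besides Igtp and Irgm2 these were the windows of Tgtp1, Tgtp2 and Gm12185, all IRG family genes, and of Adar, Olfr382 and LOC115488470.

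Of the 7 members with a window, 6 (Irgm1, Irgm2, Igtp, Gbp2, Gbp3 and Gbp7) held an ISRE-like match, against 8.56% of all windows. A GAS-like match was present in 3 (Irgm2, Igtp and Gbp7), against 8.3% of all windows, and both motifs stood together in 1.07% of all windows. Of 9 windows searched for other IRG and GBP family genes, 7 held an ISRE-like match, 5 a GAS-like match and 5 both. Irgm1 had overlapping ISRE-like matches at -30 to -22 and -24 to -16. Gbp7 had 2 GAS-like matches and Gbp2 a single ISRE-like match on the opposite strand at -58 to -50. Ifi47 held neither set of letters in its window. The members' 8 windows (Gbp3 has 2) contained 2 to 11 CpG dinucleotides with a median of 5.0, and the median over all windows was 7. A match describes these letters and is not a measured binding site.

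The gene totals were 47792306 to 58405879 counts per library, and levels below are CPM, the counts per 1000000 gene counts, on TMM-scaled library sizes. Dnmt3a, the targeted gene, stood at 148 to 173 CPM in wild type, 153 to 171 CPM in mutants, and 118 and 93.5 CPM in cre_negative_780 and cre_negative_819. Kit was at 369 to 539 CPM over the 9 libraries. Ly6a, which encodes Sca-1, was at 35.4 to 44.2 CPM in wild type, 32.7 to 39.9 CPM in mutants, and lower, at 27.2 and 30.6 CPM, in cre_negative_780 and cre_negative_819. Library cre_negative_819 stood apart in markers of other blood cells. It was above the wild-type mean in 9 of 10 erythroid markers, whose summed level was 3649 CPM, against 838 to 1051 in wild type, 856 to 1015 in mutants and 1082 in cre_negative_780. It was also above that mean in 8 of 8 mast cell and basophil markers, which summed to 303 CPM, against 146 to 158 in wild type, 114 to 161 in mutants and 152 in cre_negative_780, and its 10 LSK markers to 2207 CPM against at least 2793 in the other 8 libraries. Library cre_negative_780 had the highest B cell sum, 209 CPM with 9 of 9 markers above the wild-type mean, where wild type had 73.3 to 136 and mutants 122 to 182. Its mature neutrophil markers, 10 of 11 above that mean, summed to 334 CPM, within the mutants' 138 to 425 and above the wild-type range of 60.4 to 170. Monocyte, macrophage and dendritic cell markers summed to 559.7 CPM in cre_negative_780, with 10 of 13 above that mean. In cre_negative_819 they summed to 517 CPM, with 8 of 13 above it. Wild type had 356.5 to 518 CPM and mutants 425.8 to 499.8 CPM. No marker was under 0.1 CPM in all 9 libraries. The part of these cells in the results was not tested.

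The 9 members with a row passed the filter on low counts, and 8 of them were at 34.6 CPM or more in every library. Per kilobase of exon, the wild-type means ran from Ifi47 (78.2 ± 11.3 CPM per kb, SD, n = 3) through Gbp7 (38.8 ± 1.39), Gbp2 (35.9 ± 0.561), Igtp (28.5 ± 1.09), Gbp3 (23.4 ± 3.75), Irgm1 (18.4 ± 1.06), Irgm2 (14.9 ± 1.73) and Iigp1 (8.51 ± 1.78) to Gbp9 (1.01 ± 0.344). No neighbours in this order overlapped in their 3 wild-type libraries, though the gap between Igtp (lowest 27.9) and Gbp3 (highest 27.7) was small. Ifi47 thus had the most RNA per length and Iigp1 the least among the IRG members.

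Among the IRG effectors, Iigp1, a GTPase that loads onto parasite vacuoles, stood at 54.9, 37.6 and 56.2 CPM in the 3 wild-type libraries. In mutant_824, mutant_827, mutant_829 and mutant_830 it was at 50.5, 49.5, 34.6 and 61.3 CPM. In cre_negative_780 and cre_negative_819 it was at 81.9 and 134 CPM, above all 7 others. The wild-type and mutant means were close, 49.5 ± 10.4 (SD, n = 3) and 49.0 ± 11.0 (n = 4) CPM, and the Cre-negative mean was 108 ± 36.9 (n = 2). On the log2 scale of the edgeR fit, Cre-negative minus wild type was 1.12 (SE 0.27), mutant minus Cre-negative -1.14 (SE 0.25) and mutant minus wild type -0.02 (SE 0.23).

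Ifi47, known as Irgd, was at 171, 225 and 184 CPM in wild type and at 187, 185, 155 and 173 CPM in mutants. In cre_negative_780 and cre_negative_819 it was at 162 and 241 CPM, the first below all libraries but mutant_829 and the second above all 7 others. Its Cre-negative minus wild-type difference was 0.06 (SE 0.18) on the log2 scale, the smallest among the 9 members.

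Of the regulators, Irgm1 was at 113, 108 and 101 CPM in wild type, at 103, 102, 93.0 and 104 CPM in mutants, and at 112 and 215 CPM in cre_negative_780 and cre_negative_819. Library cre_negative_780 lay inside the wild-type range and cre_negative_819 was 1.91 times as high as cre_negative_780. Irgm2 was at 60.7, 48.2 and 56.3 CPM in wild type, at 54.5, 55.9, 45.7 and 59.6 CPM in mutants, and at 66.5 and 87.7 CPM in cre_negative_780 and cre_negative_819. Both of its Cre-negative libraries were above all 7 others, as for Iigp1. The log2 differences of Cre-negative minus wild type were 0.61 (SE 0.21) for Irgm1 and 0.49 (SE 0.16) for Irgm2.

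Igtp, also called Irgm3, was at 56.4, 56.4 and 60.2 CPM in wild type and at 63.1, 59.7, 49.95 and 69.9 CPM in mutants, in the same library order. Library cre_negative_780 had 67.5 CPM, inside the mutant range, and cre_negative_819 had 150.3 CPM. The Cre-negative mean, 109 ± 58.5 CPM, thus rested on cre_negative_819.

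**Figure D1:**
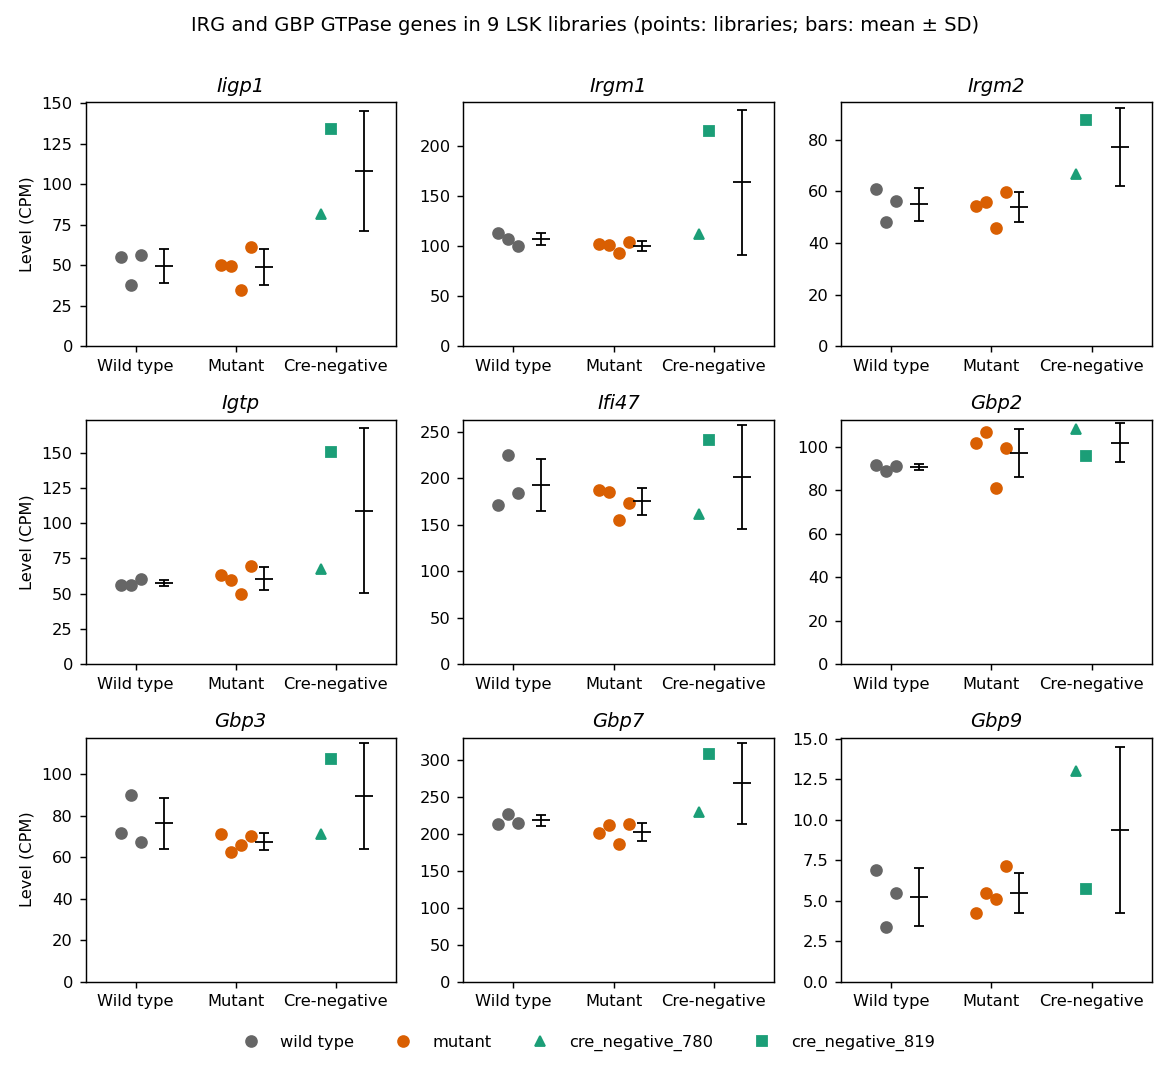
Level of each of the 9 measured members in CPM (y axis, from 0) by group, 1 point per library, with the group mean ± SD as bars beside the points. The Cre-negative points of Iigp1 (81.9 and 134 CPM) both lie above all wild-type and mutant points, whereas for Irgm1 and Igtp only cre_negative_819 stands clear.

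Among the GBPs of chromosome 3, Gbp7 was at 213, 227 and 214 CPM in wild type, at 201, 212, 186 and 213 CPM in mutants, and at 230 and 307 CPM in cre_negative_780 and cre_negative_819. It was the one member whose mutant libraries all lay below all wild-type libraries, but the highest mutant and the lowest wild-type library were nearly equal. Gbp3 was at 71.7, 90.3 and 67.3 CPM in wild type, at 71.2, 62.5, 65.8 and 70.4 CPM in mutants, and at 71.4 and 108 CPM in cre_negative_780 and cre_negative_819. Gbp2 was at 91.5, 88.8 and 91.0 CPM in wild type and at 102, 106, 81.1 and 99.2 CPM in mutants. Its Cre-negative libraries, at 108 (cre_negative_780) and 95.5 (cre_negative_819) CPM, were the nearest to each other of any member, with a ratio of cre_negative_819 to cre_negative_780 of 0.883.

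Gbp9, the scarcest member, was at 6.89, 3.35 and 5.47 CPM in wild type, at 4.23, 5.48, 5.10 and 7.16 CPM in mutants, and at 13.0 and 5.73 CPM in cre_negative_780 and cre_negative_819. Its pattern between the Cre-negative libraries was the reverse of that of Iigp1. Gbp4 and Gbp8, whose models overlap that of Gbp9, shared it, with 12.2 and 11.0 CPM in cre_negative_780 and 4.27 and 5.75 CPM in cre_negative_819. Gm43302, which was chosen after the table was seen because it spans Gbp10 and Gbp6, had 8.60, 2.99 and 5.49 CPM in wild type. In mutants it had 4.61, 5.32, 7.19 and 9.35 CPM, and in cre_negative_780 and cre_negative_819 it had 10.6 and 12.8 CPM. No value can be given to Gbp6 alone.

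Mutant minus wild-type differences on the log2 scale ran from -0.18 (Gbp3) to 0.10 (Gbp2). By edgeR's quasi-likelihood test, none of the 9 members passed an adjusted p of 0.05 (range 0.998 to 0.999), where 0 of 18576 genes (0%) did so. These differences had a median of -0.03, with 3 above 0 and 6 below, beside a median of -0.02 over all genes tested. DESeq2, run as an alternative, called 0.192% of the genes to which it gave an adjusted p, and no member. All mutant libraries lay above all wild-type libraries for 0 of 9 members (4.17% of all genes) and below them for 1 of 9, Gbp7 (4.15% of all genes).

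Cre-negative cells had a higher mean than wild-type cells for 9 of 9 members, with a median log2 difference of 0.49 beside 0.02 over all genes tested. Again edgeR's quasi-likelihood test called none of the members (adjusted p 0.698 to 0.9998) and 0% of all genes. DESeq2 called Iigp1 (adjusted p = 0.0311) among the 0.316% of genes it called. Both Cre-negative libraries lay above all wild-type libraries for 5 of 9 members (Iigp1, Irgm2, Igtp, Gbp2 and Gbp7), and for 6.25% of all genes. They lay below for 0 of 9 (5.12% of all genes). Since earlier results of this contrast chose the members, nothing is read from these counts.

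The mutant group had lower means than the Cre-negative group for 9 of 9 members, with a median log2 difference of -0.52 beside -0.03 over all genes. This comparison shares its Cre-negative libraries with the one above, so the values are not a second observation of them. No member and 0% of all genes passed edgeR's quasi-likelihood test (adjusted p of the members 0.801 to 0.968), and DESeq2 called Iigp1 (adjusted p = 0.0298) among 0.144% of genes. All mutant libraries lay below both Cre-negative libraries for 5 of 9 members (Iigp1, Irgm1, Irgm2, Gbp3 and Gbp7; 7.27% of all genes) and above them for 0 of 9 (5.09% of all genes). Earlier results of this contrast also chose the members, so nothing is read from the call of Iigp1 or from these counts.

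Much of this difference came with cre_negative_819. It had the highest level of the 9 libraries in 7 of 9 members, and cre_negative_780 in the other two, Gbp2 and Gbp9. Over all genes tested, cre_negative_819 was the highest library for 21.3% and cre_negative_780 for 20.6%. With cre_negative_819 left out, the log2 difference of Cre-negative minus wild type was 0.71 for Iigp1, 0.26 for Irgm2, 0.24 for Gbp2, 0.21 for Igtp, 0.06 for Irgm1 and for Gbp7, and 1.29 for Gbp9. For Gbp3 and Ifi47 it was then -0.11 and -0.27, so their direction turned. The median over the members was then 0.21 in place of 0.49, and 7 of 9 remained above 0. The median of mutant minus Cre-negative was then -0.14 in place of -0.52, with 8 of 9 below 0.

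With cre_negative_780 left out instead, the Cre-negative group is cre_negative_819 alone, and its spread is assumed to be like that of the other groups. The differences were then 1.40 for Iigp1, 1.35 for Igtp, 0.98 for Irgm1, 0.64 for Irgm2, 0.47 for Gbp3, 0.46 for Gbp7, 0.29 for Ifi47, 0.10 for Gbp9 and 0.05 for Gbp2. Since earlier results of these libraries chose the members, nothing is read from these differences. They compare 1 library, the one with the high erythroid and mast cell sums, with the wild-type group. In bulk RNA, a different mix of cells and a different level per cell cannot be told apart.

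**Figure D2:**
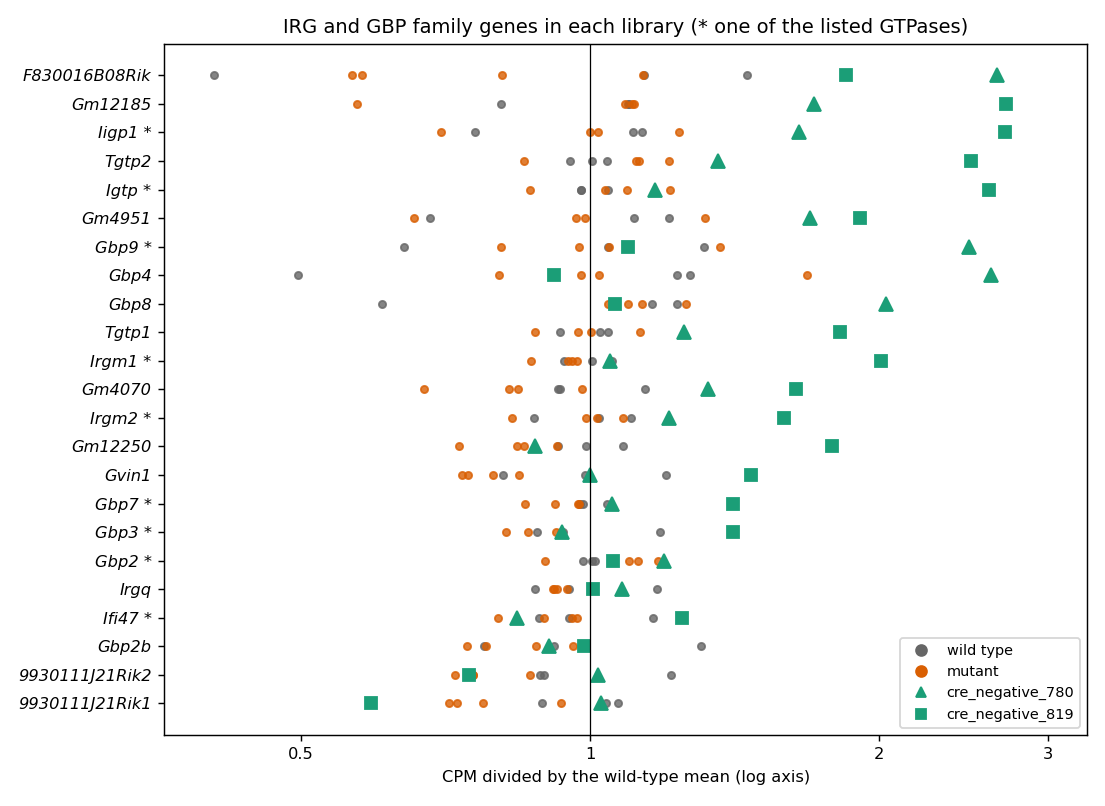
Level in each of the 9 libraries divided by the wild-type mean (x axis, log-spaced). Rows are the 9 members, marked by asterisks, and the other IRG and GBP family genes with a mean of at least 1 CPM. Gbp11 and Irgc1 are thus not shown. Iigp1 is right of 1 in both Cre-negative libraries, whereas Gbp4, Gbp8 and Gbp9 are higher in cre_negative_780 and near 1 in cre_negative_819.

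Library mutant_829 stood at the other end. It had the lowest level of the 9 libraries for 7 of 9 members (Iigp1, Irgm1, Irgm2, Igtp, Ifi47, Gbp2 and Gbp7), while it was the lowest library for 4.67% of all genes tested. Its median log2 ratio to the geometric wild-type means over the members was -0.21. The other mutant libraries were nearer to 0, at -0.04 (mutant_824), 0.02 (mutant_827) and 0.12 (mutant_830), and the Cre-negative libraries were at 0.23 (cre_negative_780) and 0.51 (cre_negative_819). Library mutant_829 was also the lowest for 7 of 15 other family genes.

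Over the 9 libraries, the Pearson correlation of log2 CPM between pairs of members ran from -0.514 to 0.989 with a median of 0.561, and 33 of 36 pairs were above 0. Within the 7 wild-type and mutant libraries the median was 0.349 and 27 of 36 pairs were above 0. The highest pair in both cases was Iigp1 and Irgm2 (0.989 over 9 libraries and 0.962 over 7), genes on different chromosomes, while Ifi47 and Gbp9 had the lowest over the 7 (-0.702). These correlations are descriptions, since the points share library scaling and cell mix.

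The genes whose pattern was most like that of Iigp1 over the 9 libraries, among 13578 genes with a mean of at least 1 CPM, were named by Pearson's r of log2 CPM. They included Gm12185 (0.976), Tgtp1 (0.976), Nlrc5 (0.969), Zbp1 (0.956), Gm4951 (0.951), Tgtp2 (0.950) and Spry4 (0.941). Nlrc5, an activator of MHC class I genes, put all 9 libraries in the same order as Iigp1. Its levels were 173, 154 and 174 CPM in wild type, 167, 154, 154 and 185 CPM in mutants, and 197 and 231 CPM in cre_negative_780 and cre_negative_819. Without cre_negative_819 these 7 correlations were 0.846 to 0.990. The libraries kept still held cre_negative_780, and the genes were picked on all 9, so these values are no independent check. Among the genes most like the mean pattern of the 9 members was Pip5k1a (0.980), whose range was only 57.9 to 70.5 CPM.

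**Figure D3:**
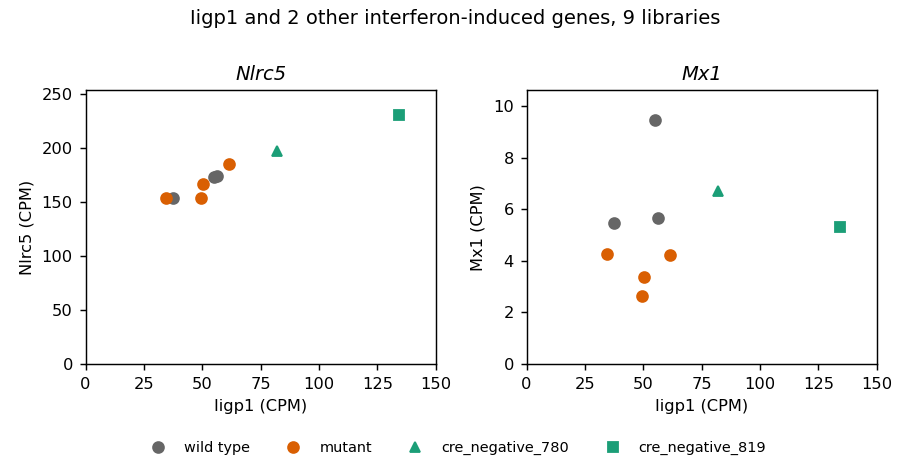
Level of Iigp1 (x axis, CPM) against Nlrc5 and Mx1 (y axes, CPM, each from 0), 1 point per library. Nlrc5 is higher where Iigp1 is higher, whereas for Mx1 the 4 mutant libraries sit lowest (2.63 to 4.26 CPM) at Iigp1 levels like those of wild type.

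Of 18 other IRG and GBP family genes listed, 16 had a row and 15 passed the filter; Irgc1 was at or near 0 in all libraries. No gene of this list passed edgeR's quasi-likelihood test in any comparison. Cre-negative minus wild type was above 0 for 12 of 15 (median 0.57), and both Cre-negative libraries lay above all wild-type libraries for 6 (Tgtp1, Tgtp2, Gm4951, F830016B08Rik, Gm12185 and Gm4070), beside 6.25% of all genes. Without cre_negative_819, an alternative added after the data were seen, the median was 0.31 with 11 of 15 above 0, and Gm12250 and Gvin1 then stood at -0.20 and -0.01. Without cre_negative_780 it was 0.68 with 10 of 15 above 0. Tgtp2, an IRG family GTPase, was at 56.0, 51.2 and 54.0 CPM in wild type and 60.5, 60.0, 45.8 and 64.9 CPM in mutants. In cre_negative_780 and cre_negative_819 it was at 73.2 and 134 CPM. Tgtp1 and Tgtp2 share 81.2% and 86.6% of their 50-base pieces with other genes, so their counts are uncertain, as are those of Gvin1 (99.2%) and Gm4070 (97.8%). Gm12250, known as Irgb10 and annotated as a processed pseudogene, was at 59.6 to 69.8 CPM in wild type, 47.1 to 59.5 CPM in mutants, and 56.5 and 115 CPM in cre_negative_780 and cre_negative_819. The median of mutant minus wild type was -0.11, with 11 of 15 below 0. DESeq2 called Tgtp2 (adjusted p = 0.0432) in Cre-negative against wild type, where it called 0.316% of the genes given an adjusted p. In mutant against Cre-negative it called Gm12185 (adjusted p = 0.0402) and Gm4070 (0.0298), beside 0.144% of such genes. This list was chosen with earlier results of these libraries known, so nothing is read from its calls or counts. Gm12185 was at 7.91 to 15.4 CPM in mutants and at 23.7 and 37.5 CPM in cre_negative_780 and cre_negative_819. Gm4070 was at 10.03 to 14.6 CPM in mutants and at 19.8 and 24.5 CPM in those libraries.

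Upstream, the interferon ligands were nearly absent: the 10 listed ligand genes together reached 0.0399 to 0.410 CPM per library, and Ifnk was the only one that passed the filter. Of 21 receptors, signal carriers and inhibitors, none passed edgeR's quasi-likelihood test in any comparison, and the median of Cre-negative minus wild type was 0.08, with 12 above 0. Ifngr1, a chain of the interferon gamma receptor, was at 143, 143 and 151 CPM in wild type, 166, 190, 155 and 151 CPM in mutants, and 187 and 229 CPM in cre_negative_780 and cre_negative_819 (difference 0.51). Socs3, an inhibitor of cytokine signalling, had a difference of -1.15, at 13.4 to 27.3 CPM in wild type and 10.1 and 6.54 CPM in cre_negative_780 and cre_negative_819. Without cre_negative_819 the difference was -0.88 for Socs3 and 0.34 for Ifngr1.

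The antiviral interferon-stimulated genes had another pattern. Of 22 such genes, none passed edgeR's quasi-likelihood test in any comparison, but mutant minus wild type was below 0 for 22 of 22, with a median of -0.30. For the 9 members that median was -0.03, and all mutant libraries lay below all wild-type libraries for 8 of the 22, beside 4.15% of all genes. Cre-negative minus wild type had a median of -0.05, with 9 of 22 above 0, where the members had 0.49. Mx1, an antiviral GTPase and the source of the Cre promoter, was at 9.48, 5.48 and 5.68 CPM in wild type, 3.37, 2.63, 4.26 and 4.22 CPM in mutants, and 6.72 and 5.33 CPM in cre_negative_780 and cre_negative_819. Its mutant libraries were all below the other 5, while those of Iigp1 overlapped wild type. The difference between the lists was not tested. Since the members were selected on earlier results of these libraries, nothing is read from their higher Cre-negative values beside this list.

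**Figure D4:**
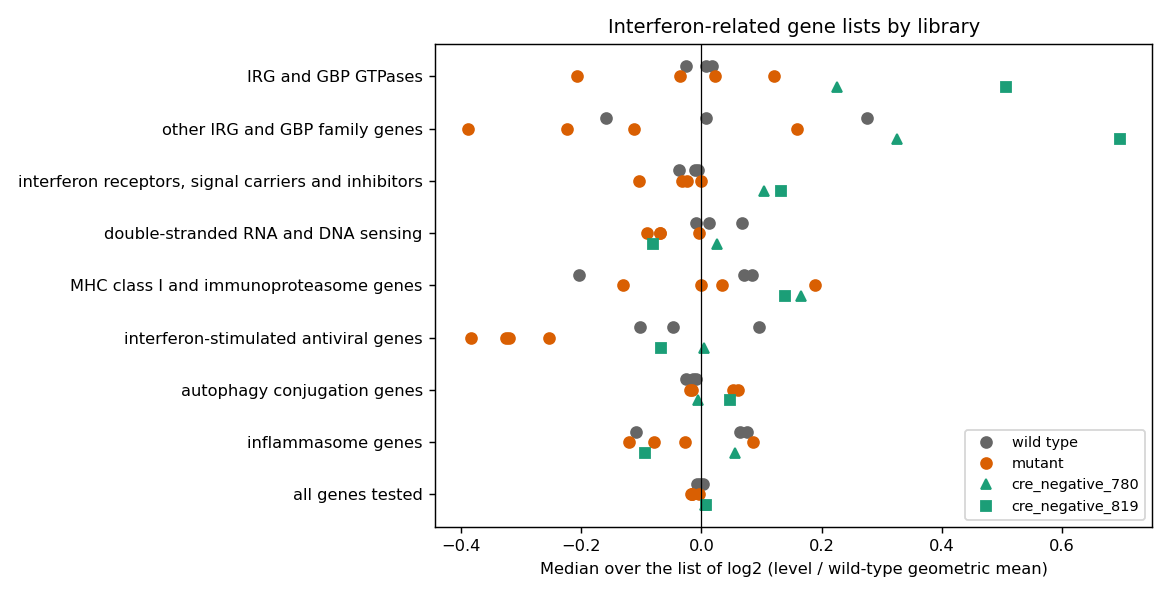
Median log2 ratio to the geometric wild-type mean (x axis) over the genes of each list and over all genes tested (rows), 1 point per library. For the members the Cre-negative libraries are at 0.23 and 0.51 and the mutants from -0.21 to 0.12, whereas for the antiviral genes all mutants are between -0.25 and -0.38 and the Cre-negative libraries are near 0. The members were selected on earlier results of these libraries.

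Another 4 gene lists had these medians on the log2 scale, with genes in both directions. Of 14 genes for the autophagy conjugation machinery, which helps to place GBPs and IRG effectors on vacuoles, Cre-negative minus wild type had a median of 0.07 and mutant minus wild type 0.01. The 9 inflammasome genes, which act downstream of GBPs, had medians of -0.09 and -0.08. Among them Nlrp3, a sensor that starts an inflammasome, was at 0.473 to 0.819 CPM in wild type, 0.359 to 0.893 CPM in mutants, and 1.12 and 2.18 CPM in cre_negative_780 and cre_negative_819. The 12 MHC class I and immunoproteasome genes had medians of 0.12 and 0.02. For 12 genes that sense double-stranded RNA and DNA, the medians were -0.03 and -0.04. Without cre_negative_819, the Cre-negative minus wild-type medians of the autophagy, inflammasome and sensing lists were -0.02, 0.04 and 0.01, so that their direction turned. No gene of these 4 lists passed edgeR's quasi-likelihood test in any comparison, and DESeq2 called none.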

How the data were processed

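RNA of 9 LSK samples was sequenced after ribosomal RNA removal with a stranded kit, per the labels' protocols. STAR, HTSeq 0.5.3p3 and DESeq2 were used on mm10 (GRCm38), per the submitters' processing notes; neither annotation nor strand setting is stated there, which leaves antisense overlaps uncertain. The authors deposited raw counts per Ensembl gene. Their second table is a scaled signal: each deposited count divided by 1 factor per library (relative tolerance 5.11e-15). It entered no test. The 5 rows naming no gene (40.5% to 47.3% of counted reads) were left out of library sizes. Reads not aligned uniquely made up 21.6% to 28.3%, so near-identical copies are undercounted.

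The members, gene lists and tests were chosen with earlier results of these data known. GENCODE M21 matched 37693 of 39179 identifiers, and 198 of 201 list symbols beyond the members had a row. After filterByExpr by group (18576 genes kept) and TMM scaling, edgeR 4.0.16 (R 4.3.3) was used for a two-sided quasi-likelihood test, with 1 mean for each group over the 9 libraries, with Benjamini-Hochberg adjustment over all genes tested and a threshold of 0.05. The SE is the log2 fold change over the square root of F, and fold changes used a prior count of 0.125. Replicates of each group differed by more than sampling noise. The settings tried besides were upper-quartile and RLE scaling, DESeq2 1.42.0, limma 3.58.1 voom with quality weights, no filter or 1 CPM in 4 libraries, a prior count of 2, only the groups compared, and each library left out. The edgeR script was first tested on simulated counts with 200 changed genes. The genes named are all members, the other family genes, core receptor and signal genes, up to 3 genes per list with the lowest unadjusted p, Dnmt3a, and the 8 genes most like Iigp1 and the members' mean by Pearson's r. Some genes and library names that this rule or design would give are not reported here. Promoter windows are from RefSeq.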

Additional observations from a re-analysis of the deposited data

Results flagged for a closer look

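Of 69 named genes examined, 3 had a mutant library far from the other mutants, with a gap to the nearest over the whole range above Dixon's critical value for 4 samples; chance alone flags about 1 in 20 groups. Gm12185, an IRG family gene, was at 7.91 CPM in mutant_829, against 15.1 to 15.4 CPM in the other mutants. Tmem173, which encodes STING, was at 91.5 CPM in mutant_829, against 101 to 102 CPM in the others. Tap2, a peptide transporter for MHC class I, was at 158 CPM in mutant_824, against 131 to 135 CPM in the others.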

How the results depend on the processing

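With 2 Cre-negative libraries, each of them decides much of the group's value. edgeR called 0 genes in each comparison, with 589 (mutant against wild type), 972 (Cre-negative against wild type) and 978 (mutant against Cre-negative) genes at an unadjusted p under 0.05. DESeq2 called 38, 56 and 27 genes and limma-voom with quality weights 13, 0 and 0. Leaving out 1 library at a time gave 0 to 650 calls in Cre-negative against wild type (650 without cre_negative_780 and 62 without cre_negative_819) and 0 to 1835 in mutant against Cre-negative (1835 without cre_negative_780 and 9 without cre_negative_819). The members' median log2 difference then ranged from 0.212 (without cre_negative_819) to 0.551 in the first and from -0.628 (without cre_negative_780) to -0.135 (without cre_negative_819) in the second; the cause was not tested. In mutant against wild type it ranged from -0.0993 to 0.0705. Under RLE and upper-quartile scaling the members' median kept its direction in both Cre-negative comparisons. No paired analysis was possible because the library numbers differ between all groups.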
